A study of Drosophila melanogaster with 30 samples.

Results

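Heads of aged flies whose sleep had become fragmented were compared, gene by gene, with heads of equally old flies that still slept normally. The 10 libraries are all those that the sample titles place in the aged SF head and aged NSF head groups, of 30 libraries in the series, and 9088 of the 17559 genes in the count table had enough reads to be tested. All flies were male adults of the Cantonized w1118 genotype, which carries a null allele of the eye pigment transporter gene white, and were kept at 25 °C with light and dark phases of 12 h each. Aged SF flies were 25 d old with fragmented sleep, aged NSF flies were 25 d old with normal sleep, and young flies, used here as a further point of reference, were 5 d old with normal sleep. Each group had 5 heads, each from 1 fly extracted singly, and the bodies made up the other 15 libraries. The aged flies were sorted by a sleep assay and not assigned to a treatment, so that whatever else differed between the flies cannot be told apart from their sleep.

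Sleep in Drosophila, as in mammals, becomes lighter and breaks into shorter bouts with age, although individuals differ in how early this happens. The fly head holds the brain with its neurons and glia, the compound eyes, the chemosensory organs of antenna and mouthparts, and a layer of fat body with blood cells (hemocytes) beneath the cuticle. Sleep loss and immunity are linked in flies: the humoral response, which runs through the Toll and Imd pathways to NF-kB factors and antimicrobial peptides, rises with age, and the JAK-STAT pathway drives stress peptides of the fat body.

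Reads counted on genes came to 2137220 to 2535467 per library in aged SF heads, 1712101 to 3099585 in aged NSF heads and 1685034 to 3597530 in young heads. Levels below are CPM, counts relative to the library total, scaled between libraries with TMM factors, and a floor of 3 counts is worth 1.18 to 1.40 CPM in aged SF heads and 0.968 to 1.75 CPM in aged NSF heads. The floor covers counting error only. The tissue label held: photoreceptor markers summed to 37090 to 50510 CPM in aged SF heads and 31800 to 38170 CPM in aged NSF heads, while 10 markers of testis, accessory gland and gut were not tested for want of reads and reached at most 7.84 CPM per tissue in any aged head. The gene white had 0 CPM in every aged SF head and at most 0.370 CPM in an aged NSF head. The median SD of a gene within a group, on the log2(CPM + 1) scale, was 0.310 in aged SF heads and 0.324 in aged NSF heads.

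Few genes separated the heads by sleep. In edgeR's quasi-likelihood test with Benjamini-Hochberg adjustment over all genes, 23 genes (0.253%) passed an adjusted p of 0.05, 20 of them higher (0.220%) and 3 lower (0.0330%) in aged SF heads. The genes that rose included the immune genes SPH93 and Drsl4, Stat92E of the JAK-STAT pathway, the glial lipocalin gene GLaz, and Obp56d and Obp57a, which encode odorant binding proteins. Those that fell were the hemocyte gene Hml, the neuropeptide gene Hug and the mitochondrial gene mt:ND4L. The change was at least 2-fold for 16 of the 23, and in 19 of the 23 the groups did not overlap, 16 with all aged SF heads above and 3 with all below the aged NSF heads. Among all genes tested, 110 (1.21%) lay wholly above and 72 (0.792%) wholly below, 848 (9.33%) had an unadjusted p under 0.05 (5.17% higher and 4.16% lower), and the median log2 fold change was -0.01 with quartiles at -0.20 and 0.18. The counts given below for each gene list are to be read against these shares.

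**Figure D1:**
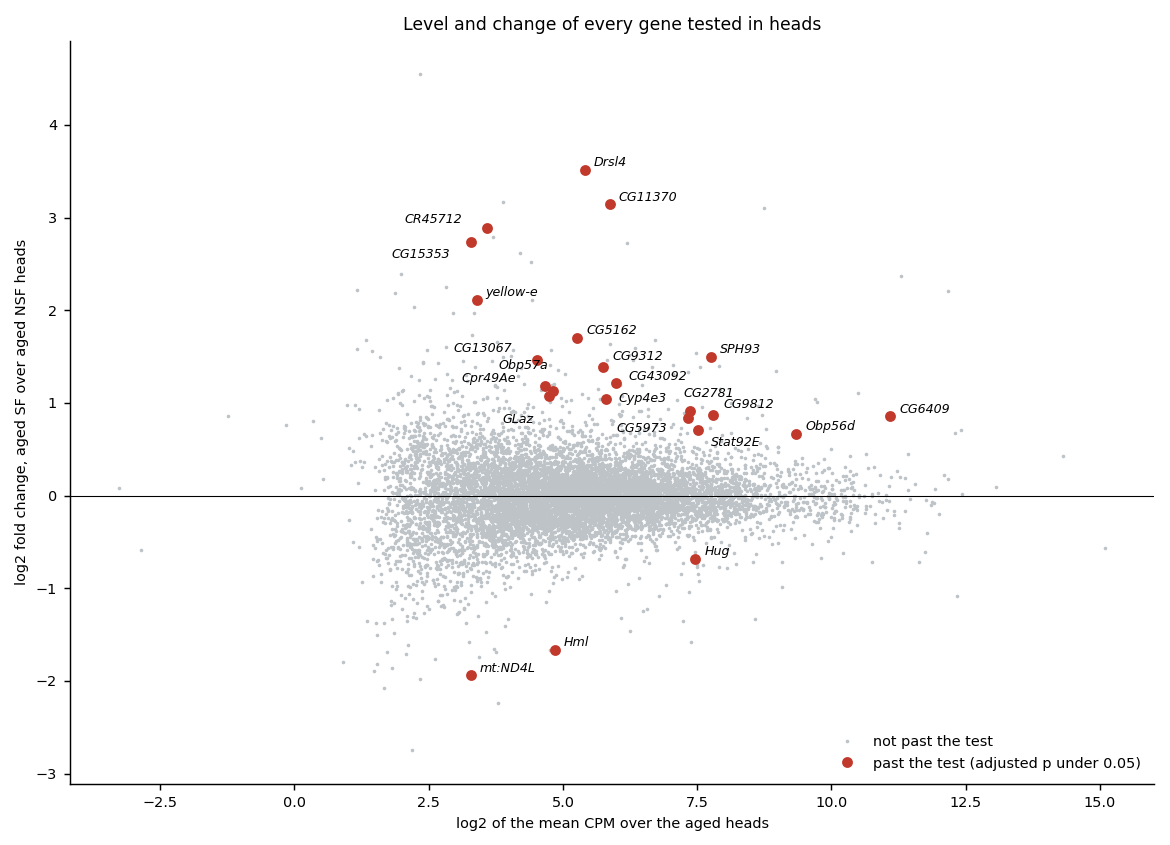
Log2 fold change of aged SF over aged NSF heads (y axis) against the log2 of the mean CPM over the 10 aged heads (x axis) for each gene tested, leaving out 1 gene without a read in the aged heads. Red points are the 23 genes past the test, 20 above the zero line and 3 below it, and their mean levels run from that of mt:ND4L, the lowest, to that of CG6409, the highest.

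The 23 genes lay on every large chromosome arm. By position in the BDGP6 assembly (dm6), 5 of 1592 genes tested on 2L, 5 of 1838 on 2R, 5 of 1697 on 3L, 6 of 2206 on 3R and 1 of 1473 on X passed, and 1 of the 16 mitochondrial genes did. The count of 23 rested partly on single flies: it was 61 without aged SF head 5, 9 without aged SF head 3 or 4, 10 without aged SF head 1 or aged NSF head 4, 11 without aged NSF head 5, and 15 without aged SF head 2 or aged NSF head 2. DESeq2 called 86. The 7 genes CG43092, SPH93, CG15353, CG9312, CR45712, Hml and CG5162 passed in every fit that left out 1 head and under every other setting tried.

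SPH93 (FBgn0032638, chromosome 2L, 17454263 to 17455923, minus strand) encodes a serine protease homologue. Its level in the aged SF heads was 503, 281, 343, 289 and 174 CPM, against 116, 101, 96.6, 131 and 119 CPM in aged NSF heads. Every aged SF head lay above every aged NSF head, with head 1 highest and head 5 nearest to the other group. SPH93 averaged 318 ± 120 CPM in aged SF heads and 113 ± 13.9 CPM in aged NSF heads (SD, n = 5 each), a log2 fold change of 1.5 ± 0.21 (SE; edgeR adjusted p = 0.00170). Young heads had almost none, with 0 CPM in heads 1 to 4 and 0.410 CPM in head 5.

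Drsl4 (FBgn0052282, 3L, 3315620 to 3315942, plus strand) belongs to the family named after the antifungal peptide Drosomycin. It stood at 71.8, 69.1, 142, 78.1 and 31.7 CPM in aged SF heads, against 5.36, 5.46, 13.6, 3.33 and 5.38 CPM in aged NSF heads. The lowest aged SF head was still above the highest aged NSF head, which was head 3. The log2 fold change was 3.52 ± 0.52, the largest in size among the 23 (edgeR adjusted p = 0.0125). Without aged NSF head 4 or 5 the adjusted p was 0.0516 and above, up to 0.0541, and limma voom with quality weights gave 0.0590. Young heads ranged from 11.9 to 68.0 CPM and overlapped both aged groups. Of 6 family members in the table only 1 more could be tested, Drsl5, at 543 ± 108 CPM in aged SF heads and 297 ± 120 CPM in aged NSF heads (log2 0.87 ± 0.30, edgeR adjusted p = 0.360).

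Other effectors of humoral immunity did not pass. None of the 17 antimicrobial peptide genes passed the test, 1 (CecB, a cecropin) had an unadjusted p under 0.05, and 2 of the 17 had a log2 fold change above 0. Their median was -0.52, beside -0.01 over all genes. Drosomycin itself, Drs, was at 1478, 4178, 1520, 4410 and 2056 CPM in aged SF heads, against 1740, 1899, 1810, 8804 and 6540 CPM in aged NSF heads. The groups overlapped, and aged NSF heads 4 and 5 stood highest (log2 -0.61 ± 0.58, edgeR adjusted p = 0.816). The diptericin gene Dpt ran from 608 to 8295 CPM within aged SF heads, against 1200 to 7144 CPM within aged NSF heads. Of 18 Bomanin and other Toll-induced genes SPH93 alone passed, with a median of 0.17, and of 35 genes for microbe recognition and the NF-kB pathways none passed, 5 had an unadjusted p under 0.05 with higher levels in aged SF heads and the median was -0.01. Examples of those 5 are spz, the Toll ligand (log2 0.51 ± 0.16, edgeR adjusted p = 0.260), and nec, a serpin that restrains Toll activation (log2 0.53 ± 0.17, edgeR adjusted p = 0.239). Over all genes, 5.17% were higher and 4.16% lower at an unadjusted p under 0.05.

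Stat92E (FBgn0016917, 3R, 20535323 to 20552311, minus strand) encodes the only STAT of the fly, the transcription factor at the end of the JAK-STAT pathway. It was at 286, 206, 284, 210 and 155 CPM in aged SF heads, against 143, 135, 155, 116 and 150 CPM in aged NSF heads. The groups were just apart, with aged SF head 5 only just above aged NSF head 3. Stat92E averaged 228 ± 56.1 CPM in aged SF heads and 140 ± 15.3 CPM in aged NSF heads (SD, n = 5 each; log2 0.71 ± 0.15, edgeR adjusted p = 0.0357). The call ended, at an adjusted p of 0.0523 to 0.168, without young head 3, without any 1 of aged SF heads 1, 3 and 4, or without any 1 of aged NSF heads 1, 2, 4 and 5. Young heads, at 264 to 325 CPM, were all above the aged NSF heads.

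Other JAK-STAT genes did not pass. The receptor gene dome (log2 0.26), the kinase gene hop (0.22), the cytokine gene upd3 (0.19) and the feedback inhibitor gene Socs36E (0.24) had edgeR adjusted p values of 0.64 or more. The Turandot genes, which encode secreted stress peptides, varied widely between flies. TotX was at 1200, 709, 1029, 651 and 248 CPM in aged SF heads, against 172, 142, 45.7, 15.6 and 71.1 CPM in aged NSF heads, so that the groups did not overlap (log2 3.10 ± 0.63, edgeR adjusted p = 0.0819). TotA averaged 7560 ± 3534 CPM in aged SF heads and 1630 ± 1359 CPM in aged NSF heads (SD, n = 5 each; log2 2.21 ± 0.74, edgeR adjusted p = 0.337). TotM overlapped throughout, at 1095 ± 397 CPM in aged SF heads and 895 ± 1112 CPM in aged NSF heads. Over the 14 Turandot and JAK-STAT genes tested, 1 was called, 5 had an unadjusted p under 0.05, all higher in aged SF heads, and the median log2 was 0.28.

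Hml (FBgn0029167, 3L, 13846054 to 13860001, plus strand) encodes Hemolectin, a large clotting protein that marks the plasmatocytes, the phagocytic hemocytes. It was at 12.2, 11.5, 19.9, 18.97 and 6.61 CPM in aged SF heads, against 56.3, 36.8, 54.5, 47.4 and 24.5 CPM in aged NSF heads. The highest aged SF head lay below the lowest aged NSF head. Hml fell to 13.8 ± 5.56 CPM in aged SF heads, against 43.9 ± 13.3 CPM in aged NSF heads (SD, n = 5 each; log2 -1.67 ± 0.28, edgeR adjusted p = 0.00346). Young heads averaged 33.5 ± 9.01 CPM and were all above the aged SF heads. In bulk heads, fewer cells of a type and less RNA per cell cannot be told apart.

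Of the other hemocyte markers, NimC1, eater and He had few reads, while Pxn and srp had enough to be tested. The phagocytosis receptor gene NimC1 had 1, 0, 1, 2 and 2 reads in aged SF heads, against 7, 7, 11, 3 and 1 reads in aged NSF heads, and its relative eater had 1, 1, 0, 3 and 0 reads in aged SF heads, against 8, 5, 3, 1 and 0 reads in aged NSF heads. Both were too low to be tested, as was the hemocyte antigen gene He. Pxn, which encodes the matrix enzyme peroxidasin, was at 56.7 ± 6.66 CPM in aged SF heads and 65.0 ± 10.1 CPM in aged NSF heads (log2 -0.20 ± 0.16, edgeR adjusted p = 0.762). The GATA factor gene srp, which is also expressed in fat body, was at 32.3 ± 16.0 CPM in aged SF heads and 18.1 ± 8.14 CPM in aged NSF heads (log2 0.81 ± 0.39, edgeR adjusted p = 0.530). The 6 markers summed to 67.0 to 122.5 CPM in aged SF heads and 93.9 to 161 CPM in aged NSF heads, ranges that overlap. Of 17 tested genes in a wider hemocyte and basement membrane list, Hml alone was called, 6 had an unadjusted p under 0.05 with lower levels and 1 with a higher level in aged SF heads, and the median log2 was -0.19. The higher one, Glt, which encodes the secreted protein glutactin, was at 256 ± 123 CPM in aged SF heads and 131 ± 55.0 CPM in aged NSF heads (log2 0.96 ± 0.36, edgeR adjusted p = 0.422).

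Hug (FBgn0028374, 3R, 12526188 to 12529076, plus strand) encodes the precursor of the hugin neuropeptides, which a small group of neurons beneath the esophagus produces and which act in feeding. Its level was 132, 145, 135, 127 and 137 CPM in aged SF heads, against 262, 229.5, 179.9, 206.5 and 209 CPM in aged NSF heads. No aged SF head reached the lowest aged NSF head. Hug fell to 135 ± 6.80 CPM in aged SF heads, against 217.5 ± 30.6 CPM in aged NSF heads (SD, n = 5 each; log2 -0.68 ± 0.13, edgeR adjusted p = 0.0125), and without aged SF head 1, 3 or 4 the adjusted p was 0.0515 to 0.0640. Both aged groups lay above the young heads, which averaged 94.3 ± 12.9 CPM. The log2 fold change over young heads was 0.52 (edgeR adjusted p = 0.00377) for aged SF heads and 1.21 (edgeR adjusted p = 1.83e-07) for aged NSF heads.

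Of 28 neuropeptide genes tested, Hug alone passed, and the median log2 was -0.05. Dh44, which encodes a diuretic hormone with a role in rhythms of rest and activity, was at 80.8, 98.7, 70.6, 91.4 and 77.6 CPM in aged SF heads, against 121, 128, 113, 102 and 123 CPM in aged NSF heads. Its groups did not overlap, yet the test over all genes was not passed (log2 -0.48 ± 0.16, edgeR adjusted p = 0.281). Nplp4 was at 17.5, 23.0, 75.7, 45.9 and 18.1 CPM in aged SF heads, against 3.83, 4.77, 6.36, 8.88 and 7.77 CPM in aged NSF heads (log2 2.52 ± 0.57, edgeR adjusted p = 0.101). The clock neuron peptide gene Pdf did not pass (log2 0.16, edgeR adjusted p = 0.82).

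Genes of the clock and of sleep itself did not pass. Of 21 circadian clock genes none was called, 3 had an unadjusted p under 0.05, all higher in aged SF heads, and the median log2 was 0.10. The activator gene Clk was at 40.2, 28.3, 41.6, 34.5 and 28.2 CPM in aged SF heads, against 23.0, 18.1, 29.1, 13.3 and 12.6 CPM in aged NSF heads (log2 0.83 ± 0.26, edgeR adjusted p = 0.233). Aged NSF head 3 overlapped the lowest aged SF heads. The repressor gene per averaged 99.8 ± 20.6 CPM in aged SF heads and 71.8 ± 8.97 CPM in aged NSF heads (log2 0.47 ± 0.18, edgeR adjusted p = 0.393). Of 56 sleep regulators none was called, with 1 higher (the serotonin receptor gene 5-HT2A) and 5 lower at an unadjusted p under 0.05. The median of the 56 was -0.03. Beside both lists, 5.17% of all genes were higher and 4.16% lower at that p. The time of day at which each fly was collected is not given in the sources used here.

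Odorant binding proteins are small soluble proteins secreted into the fluid of smell and taste hairs. Obp56d (FBgn0034470, 2R, 19702924 to 19703915, minus strand) was at 714, 773, 947, 820.5 and 727 CPM in aged SF heads, against 557.5, 575, 458, 424.5 and 493 CPM in aged NSF heads. All aged SF heads were above all aged NSF heads, with means of 796 ± 94.3 CPM in aged SF heads and 501.5 ± 64.1 CPM in aged NSF heads (SD, n = 5 each; log2 0.67 ± 0.13, edgeR adjusted p = 0.0125), and without aged SF head 3 or 4 or aged NSF head 4 the adjusted p was 0.0550 to 0.0994. Obp57a (FBgn0043535, 2R, 20505150 to 20505758, plus strand) was at 33.3, 43.4, 42.0, 44.4 and 30.4 CPM in aged SF heads, against 20.3, 18.1, 24.5, 7.77 and 17.3 CPM in aged NSF heads (log2 1.13 ± 0.24, edgeR adjusted p = 0.0357). The groups did not overlap, and young heads averaged 44.5 ± 9.37 CPM. The Obp57a call ended, at 0.0504 to 0.139, without young head 3 or 5, any 1 of aged SF heads 1 to 4, or any 1 of aged NSF heads 1, 2, 4 and 5.

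Among 25 odorant binding protein genes tested, these 2 were called, 7 higher and 3 lower in aged SF heads had an unadjusted p under 0.05, and the median log2 was 0.28. Over all genes 0.253% were called, and 5.17% were higher and 4.16% lower at that unadjusted p. Obp56a did not overlap between the groups, at 47.1 ± 11.9 CPM in aged SF heads and 18.8 ± 7.76 CPM in aged NSF heads (SD, n = 5 each; log2 1.31 ± 0.32, edgeR adjusted p = 0.0903). Obp56g lay the other way, at 32.1 ± 6.64 CPM in aged SF heads and 50.7 ± 6.41 CPM in aged NSF heads (log2 -0.66 ± 0.17, edgeR adjusted p = 0.127). Ir76a, an ionotropic receptor gene, did not overlap between the groups either, at 22.7, 17.7, 19.0, 17.8 and 23.8 CPM in aged SF heads, against 35.6, 41.9, 38.2, 33.3 and 36.5 CPM in aged NSF heads (log2 -0.88 ± 0.21, edgeR adjusted p = 0.0744).

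**Figure D2:**
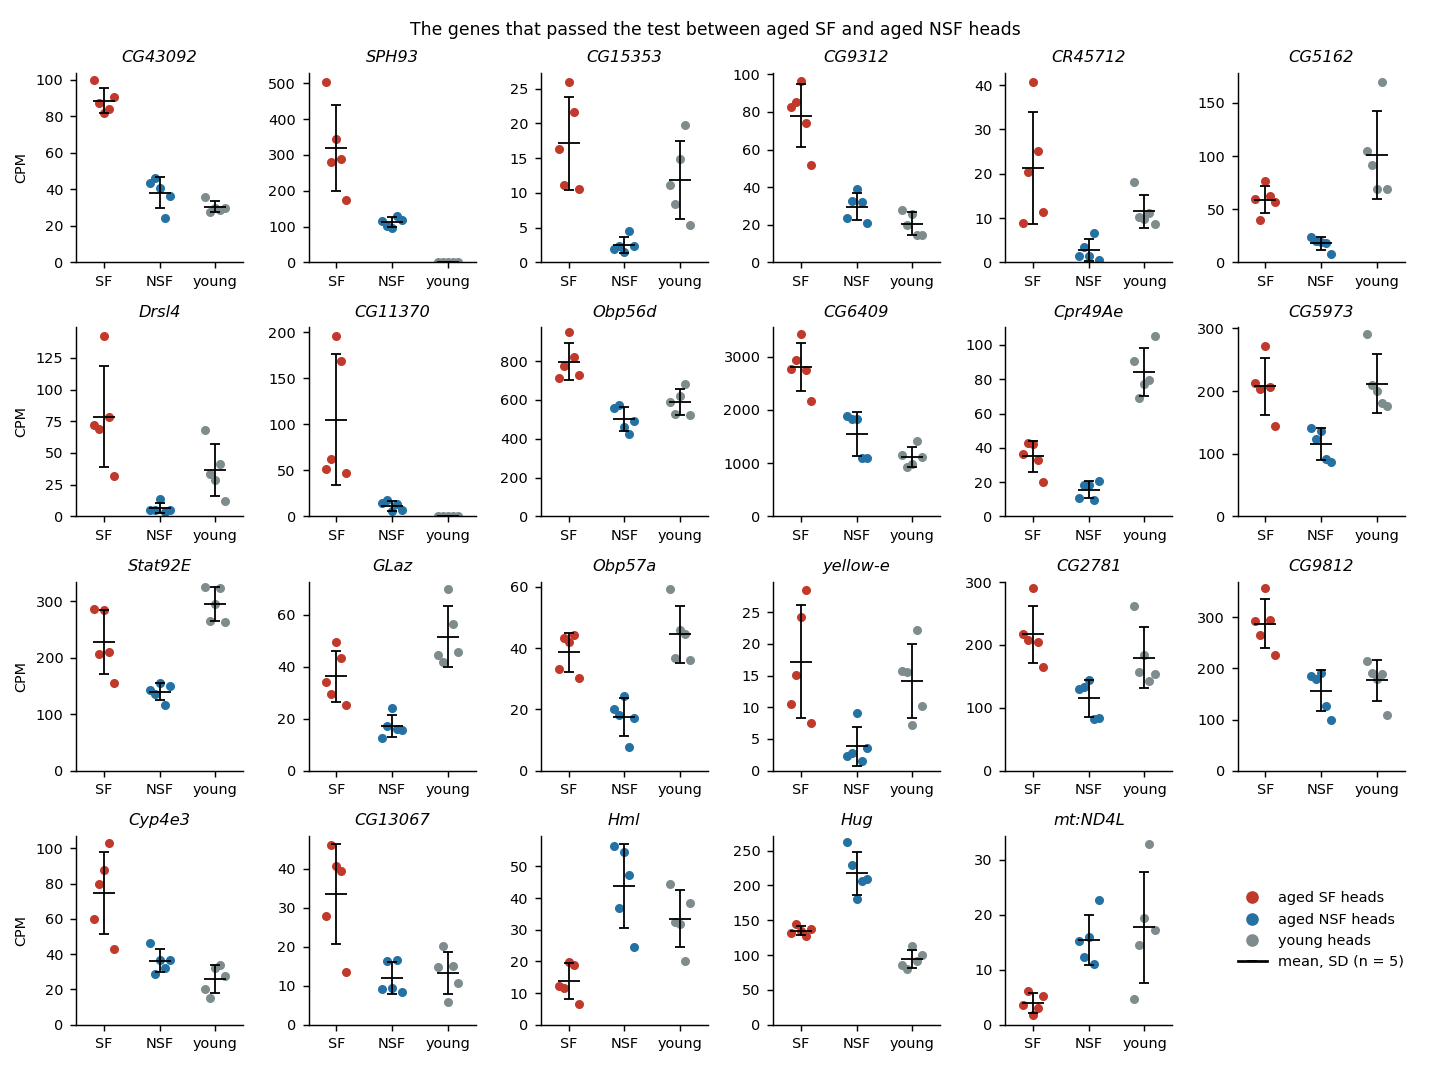
CPM of each of the 23 genes past the test in each head, with a panel per gene and its own y axis from 0. Points are heads of aged SF (red), aged NSF (blue) and young flies (grey) in replicate order, and bars give the mean and SD (n = 5). Aged SF heads sit above aged NSF heads in the first 20 panels, with overlap in Cpr49Ae, yellow-e, Cyp4e3 and CG13067, and below them in Hml, Hug and mt:ND4L.

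GLaz (FBgn0033799, 2R, 13163959 to 13168032, minus strand) encodes Glial Lazarillo, a lipocalin related to vertebrate apolipoprotein D that protects flies against oxidative stress and starvation. It was at 34.1, 29.7, 49.3, 43.2 and 25.1 CPM in aged SF heads, against 12.6, 17.1, 24.2, 15.9 and 15.5 CPM in aged NSF heads. Aged SF head 5 and aged NSF head 3 came within about 1 CPM of each other without crossing. GLaz averaged 36.3 ± 9.90 CPM in aged SF heads and 17.1 ± 4.32 CPM in aged NSF heads (SD, n = 5 each; log2 1.08 ± 0.23, edgeR adjusted p = 0.0357). The adjusted p was 0.0537 to 0.168 without young head 5, any 1 of aged SF heads 1, 3 and 4, or any 1 of aged NSF heads 1, 2, 4 and 5. Of 27 glial genes tested GLaz alone was called, 6 higher and 1 lower had an unadjusted p under 0.05, and the median log2 was 0.20. The 6 glial markers together had 1283 to 1446 CPM in aged SF heads and 890 to 1361 CPM in aged NSF heads, and their part in the GLaz difference was not tested.

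CG2781, named Elovl7 in the current annotation (FBgn0037534, 3R, 7981817 to 7995852, minus strand), encodes a protein of the family that lengthens very long chain fatty acids. It averaged 217 ± 45.6 CPM in aged SF heads and 114.9 ± 29.6 CPM in aged NSF heads (SD, n = 5 each; log2 0.91 ± 0.19, edgeR adjusted p = 0.0394), and the groups did not overlap. The call ended, at 0.0528 to 0.168, without young head 3 or 5, any 1 of aged SF heads 1 to 4, or any 1 of aged NSF heads 1, 2, 4 and 5. Of 24 genes of lipid storage and turnover none was called, and the median was 0.01. The receptor gene of adipokinetic hormone, AkhR, was at 24.5 ± 13.3 CPM in aged SF heads and 8.36 ± 3.22 CPM in aged NSF heads, with overlap (log2 1.51 ± 0.43, edgeR adjusted p = 0.212).

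Cyp4e3 (FBgn0015035, 2L, 9747839 to 9750071, minus strand) encodes a cytochrome P450, a family of oxidases that act on toxins and lipids. It was at 60.1, 79.7, 87.9, 102.8 and 43.2 CPM in aged SF heads, against 46.3, 29.0, 36.9, 32.2 and 36.5 CPM in aged NSF heads. Aged SF head 5 fell below aged NSF head 1, the single overlap (log2 1.05 ± 0.23, edgeR adjusted p = 0.0416). The call ended, at 0.0549 to 0.175, without young head 3 or 5, any 1 of aged SF heads 1 to 4, or any 1 of aged NSF heads 2 to 5. Of 68 P450 genes tested Cyp4e3 alone was called, 13 higher and 2 lower had an unadjusted p under 0.05, and the median log2 was 0.10. Cyp6a8, not called, was at 25.5 ± 9.55 CPM in aged SF heads and 10.4 ± 2.02 CPM in aged NSF heads without overlap (log2 1.29 ± 0.38, edgeR adjusted p = 0.204). Glutathione S-transferases, which conjugate toxins, had 0 of 31 members called, 5 at an unadjusted p under 0.05, all higher, and a median of 0.19. Beside both families, 5.17% of all genes were higher and 4.16% lower at that p.

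Genes of the cuticle and of pigmentation contributed 1 call each. Cpr49Ae (FBgn0033728, 2R, 12402216 to 12405108, plus strand), a structural protein gene of the cuticle, was at 36.1, 43.0, 42.4, 33.0 and 20.3 CPM in aged SF heads, against 10.7, 18.1, 18.2, 9.62 and 20.9 CPM in aged NSF heads. Aged SF head 5 lay within the aged NSF range, and the young heads, at 69.2 to 105 CPM, lay above both aged groups (log2 1.18 ± 0.23, edgeR adjusted p = 0.0180). Its adjusted p was 0.0533 to 0.0994 without any 1 of aged SF heads 1 to 4 or without aged NSF head 1 or 4. Of 22 cuticular protein genes 1 was called, and 5 higher and 4 lower had an unadjusted p under 0.05. The gene yellow-e (FBgn0041711, 3R, 13409543 to 13415286, minus strand), of the family named after the pigmentation gene yellow, was at 10.6, 15.1, 24.2, 28.5 and 7.49 CPM in aged SF heads, against 2.30, 2.73, 9.08, 1.48 and 3.59 CPM in aged NSF heads. Aged NSF head 3 overlapped aged SF head 5 (log2 2.11 ± 0.45, edgeR adjusted p = 0.0394). The yellow-e call ended, at 0.0515 to 0.168, without young head 2 or 5, any 1 of aged SF heads 1 to 4, or any 1 of aged NSF heads 1, 2, 4 and 5, and at 0.0517 in a fit of the 10 aged heads alone.

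The mitochondrial genome supplied the third gene that fell. The gene mt:ND4L (FBgn0013683, mitochondrial genome, 9545 to 9835, minus strand) encodes a subunit of respiratory complex I and lies next to mt:ND4, with which it shares 0.344% of its exonic bases. It was at 3.65, 6.20, 1.73, 3.04 and 5.29 CPM in aged SF heads, against 15.3, 12.3, 16.1, 11.1 and 22.7 CPM in aged NSF heads. The aged SF heads rested on only 9, 14, 4, 8 and 12 reads, and head 3 was near its floor of 1.33 CPM. All aged SF heads lay below all aged NSF heads, with means of 3.98 ± 1.78 CPM in aged SF heads and 15.5 ± 4.53 CPM in aged NSF heads (SD, n = 5 each; log2 -1.94 ± 0.42, edgeR adjusted p = 0.0394). Its adjusted p was 0.0544 to 0.168 without young head 3 or 5, any 1 of aged SF heads 1, 3 and 4, or any 1 of the 5 aged NSF heads, and 0.0576 by limma voom with quality weights. Reads of mitochondrial genes made up 3.27% to 5.90% of the counts in aged SF heads and 5.40% to 7.33% in aged NSF heads, and the part of that share in the mt:ND4L difference was not tested.

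Of 12 mitochondrial-genome genes tested 3 had an unadjusted p under 0.05, all lower in aged SF heads, and the median log2 was -0.37. The complex I gene mt:ND6 did not overlap, at 10.6, 7.09, 2.60, 3.79 and 7.05 CPM in aged SF heads, against 11.1, 13.98, 16.1, 16.3 and 43.0 CPM in aged NSF heads (log2 -1.66 ± 0.46, edgeR adjusted p = 0.177). The more abundant mt:ND1 was at 412 ± 125 CPM in aged SF heads and 675 ± 168 CPM in aged NSF heads (log2 -0.71 ± 0.23, edgeR adjusted p = 0.293). Genes of the cytochrome oxidase subunits were close to 0, with log2 values of 0.02 for mt:CoI, -0.11 for mt:CoII and 0.13 for mt:CoIII. Of 73 nuclear genes of oxidative phosphorylation none was called, and the median was -0.07.

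The remaining 10 called genes carry only CG or CR numbers, and no role is given for them in the files. CG43092 (FBgn0262538, 3R, 22768883 to 22769667, minus strand) had the smallest adjusted p of all genes. It was at 99.9, 87.2, 81.8, 84.2 and 90.4 CPM in aged SF heads, against 43.3, 46.0, 40.9, 24.1 and 36.5 CPM in aged NSF heads and 27.8 to 35.6 CPM in young heads. The lowest aged SF head was far above the highest head of either other group (log2 1.21 ± 0.17, edgeR adjusted p = 0.00120). CG9312 (FBgn0038179, 3R, 13765756 to 13767103, plus strand) was at 82.4, 85.5, 96.5, 74.0 and 51.6 CPM in aged SF heads, against 23.7, 32.4, 38.8, 31.8 and 20.9 CPM in aged NSF heads (log2 1.39 ± 0.22, edgeR adjusted p = 0.00183).

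CG11370 (FBgn0037181, 3L, 22712155 to 22713660, plus strand) shared with SPH93 a level near 0 in young heads, at most 0.648 CPM. It was at 51.6, 62.9, 196, 169 and 47.6 CPM in aged SF heads, against 14.6, 18.1, 5.75, 13.7 and 6.58 CPM in aged NSF heads. Aged SF heads 3 and 4 stood well above the other 3, and none overlapped the aged NSF heads (log2 3.15 ± 0.48, edgeR adjusted p = 0.0125). Without aged NSF head 4 or 5 the adjusted p was 0.0516 to 0.0531, and in the fit of the 10 aged heads alone and by limma voom the call was also lost, with a largest adjusted p of 0.100. CG5162 (FBgn0030828, X, 17215304 to 17217365, plus strand) was the single called gene on the X, at 59.7, 40.3, 76.6, 62.6 and 56.4 CPM in aged SF heads, against 24.1, 20.1, 19.4, 17.8 and 7.77 CPM in aged NSF heads (log2 1.7 ± 0.27, edgeR adjusted p = 0.00436). Young heads averaged more of it, 101 ± 41.6 CPM, and their range of 68.7 to 169.9 CPM overlapped that of the aged SF heads.

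CG15353 and CR45712 overlap at 1 locus. CG15353 (FBgn0040718, 2L, 2006763 to 2007193, minus strand) shares 70.3% of its exonic bases with CR45712 (FBgn0267276, 2L, 2006867 to 2007688, plus strand), a noncoding gene named asRNA:CR45712 in the current annotation, which shares 29.9% of its own. The sources used here do not say whether counting used the strand, so reads on the shared stretch cannot be assigned to either gene here. CG15353 was at 16.2, 11.1, 26.0, 21.6 and 10.6 CPM in aged SF heads, against 1.91, 2.39, 1.51, 4.44 and 2.39 CPM in aged NSF heads (log2 2.74 ± 0.42, edgeR adjusted p = 0.00183). CR45712 was at 8.93, 20.4, 40.7, 25.0 and 11.5 CPM in aged SF heads, against 1.53, 3.41, 1.51, 6.66 and 0.598 CPM in aged NSF heads (log2 2.89 ± 0.47, edgeR adjusted p = 0.00346). In both genes the groups did not overlap, aged SF head 3 was highest, and several aged NSF heads were near the floor.

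Of the other 4 genes with CG numbers CG6409 (FBgn0036106, 3L, 10880699 to 10882386, minus strand) was the most abundant of the 23, at 2807 ± 450 CPM in aged SF heads and 1550 ± 412 CPM in aged NSF heads (SD, n = 5 each; log2 0.86 ± 0.17, edgeR adjusted p = 0.0174). CG5973 (2L, 7437492 to 7445882) averaged 208 ± 45.4 CPM in aged SF heads and 116 ± 25.2 CPM in aged NSF heads (log2 0.84 ± 0.17, edgeR adjusted p = 0.0321), and 16.6% of its exonic bases overlap santa-maria on the other strand. CG9812 (2R, 23412320 to 23419684) averaged 287 ± 48.1 CPM in aged SF heads and 156 ± 40.7 CPM in aged NSF heads (log2 0.87 ± 0.18, edgeR adjusted p = 0.0410). In these 3 the groups did not overlap. CG13067 (3L, 16271282 to 16271918) did overlap, because aged SF head 5 stood at 13.7 CPM, and averaged 33.6 ± 12.9 CPM in aged SF heads and 12.0 ± 4.14 CPM in aged NSF heads (log2 1.47 ± 0.32, edgeR adjusted p = 0.0435).

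These 4 calls depended on single libraries. CG6409 was lost, at an edgeR adjusted p of 0.0530 to 0.0994, without any 1 of aged SF heads 1 to 4 or without aged NSF head 4 or 5, and at 0.0976 in the fit of the 10 aged heads alone. CG5973 was lost, at 0.0582 to 0.168, without any 1 of aged SF heads 1 to 4 or of aged NSF heads 2, 4 and 5. CG9812 was lost, at 0.0543 to 0.168, without any 1 of young heads 2, 3 and 4, of aged SF heads 1 to 4 or of aged NSF heads 2, 4 and 5. CG13067 was lost, at 0.0544 to 0.168, without young head 5, any 1 of aged SF heads 1 to 4 or any 1 of the 5 aged NSF heads.

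Within the groups, the same heads often stood highest or lowest among the genes that rose. These genes were chosen for their difference and may vary together, so their counts do not rank the flies by distance from the other group. Over all genes tested, mean correlation with the aged NSF heads was lowest for aged SF head 3 (0.926) and highest for aged SF head 4 (0.938). Among the 20 genes that rose, aged SF head 3 was the highest of its group in 12, and aged SF head 5 was the lowest of its group in 16. Over all 9088 genes aged SF head 3 was the highest of its group in 19.6% and aged SF head 5 the lowest in 24.6%. In aged NSF heads head 4 was lowest in 9 of the 20 genes and in 19.1% of all genes, and head 3 was highest in 8 of the 20 and in 18.7% of all genes. Aged NSF head 5 was lowest in 6 of the 20, near its share of 25.2% over all genes. Marker sums of several cell types shared parts of this order. Fat body markers were at 2542, 1567, 3089, 2104 and 971 CPM in aged SF heads. In aged NSF heads they were at 2104, 1787, 2485, 1035 and 804 CPM, lowest in head 5. Glial markers were at 1437, 1405, 1446, 1362 and 1283 CPM in aged SF heads. In aged NSF heads they were at 1194, 1261, 1361, 890 and 1031 CPM, lowest in head 4. Hemocyte markers were also highest in aged SF head 3 (122.5 CPM) and lowest in aged SF head 5 (67.0 CPM), but highest in aged NSF head 1 (161 CPM). The part of fat body, glial or hemocyte RNA in the differences was not tested.

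Fat body genes themselves did not pass. Of 14 tested, 0 were called, 2 higher and 1 lower had an unadjusted p under 0.05, and the median log2 was 0.39. The storage protein gene Lsp1beta was at 43.0, 90.8, 249.7, 182 and 70.1 CPM in aged SF heads, against 41.7, 34.4, 9.99, 6.66 and 0.598 CPM in aged NSF heads (log2 2.73 ± 0.74, edgeR adjusted p = 0.228). The groups did not quite overlap, and both spread widely. Its relative Lsp1alpha was at 0.812, 5.76, 29.0, 8.72 and 4.41 CPM in aged SF heads, against 0.383, 0, 1.21, 0 and 0 CPM in aged NSF heads, where it was at or near the floor (edgeR adjusted p = 0.217).

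Heat shock protein genes, the chaperones of stressed cells, had a median log2 of 0.36 over 22 genes. None was called, and 8 had an unadjusted p under 0.05, all higher in aged SF heads. The small chaperone gene Hsp26 was at 73.1, 52.7, 84.0, 184 and 408 CPM in aged SF heads, against 46.0, 45.4, 41.2, 69.6 and 48.4 CPM in aged NSF heads (log2 1.68 ± 0.49, edgeR adjusted p = 0.270). Here aged SF head 5 was the highest, unlike in the genes that passed. Hsp68 was at 70.6, 55.8, 125, 134 and 222 CPM in aged SF heads, against 24.1, 24.2, 78.1, 30.0 and 43.6 CPM in aged NSF heads (log2 1.59 ± 0.44, edgeR adjusted p = 0.232).

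In the eye, none of 41 phototransduction genes passed, with 7 higher and 3 lower at an unadjusted p under 0.05 and a median of 0.03. Over all genes, 5.17% were higher and 4.16% lower at that p. ninaE, the rhodopsin of the outer photoreceptors, was at 21980, 20930, 28110, 23670 and 21410 CPM in aged SF heads, against 19920, 19110, 14880, 15880 and 16700 CPM in aged NSF heads. These ranges did not overlap, while the change was small (log2 0.42 ± 0.14, edgeR adjusted p = 0.287). The rhodopsin gene of other photoreceptors, Rh6, had a log2 of -0.42 ± 0.16 (edgeR adjusted p = 0.362). Of 32 synapse and neuronal core genes none was called and the median was -0.03, and neuron markers summed to 1323 to 1694 CPM in aged SF heads and 1288 to 1671 CPM in aged NSF heads.

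Of 30 muscle genes none was called, 7 had an unadjusted p under 0.05, all lower in aged SF heads, and the median log2 was -0.15. The actin gene Act87E was at 85.7 ± 8.88 CPM in aged SF heads and 130 ± 38.2 CPM in aged NSF heads (log2 -0.59 ± 0.18, edgeR adjusted p = 0.212). No gene was called among 84 cytosolic ribosomal protein genes (median -0.10), 33 proteasome genes (-0.13), 19 glycolysis genes (-0.12), 26 autophagy genes (0.01), 21 genes of the unfolded protein response (0.09), 23 antioxidant genes (0.08), 24 insulin and FOXO genes (-0.04) or 17 activity-regulated genes (0.03).

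**Figure D3:**
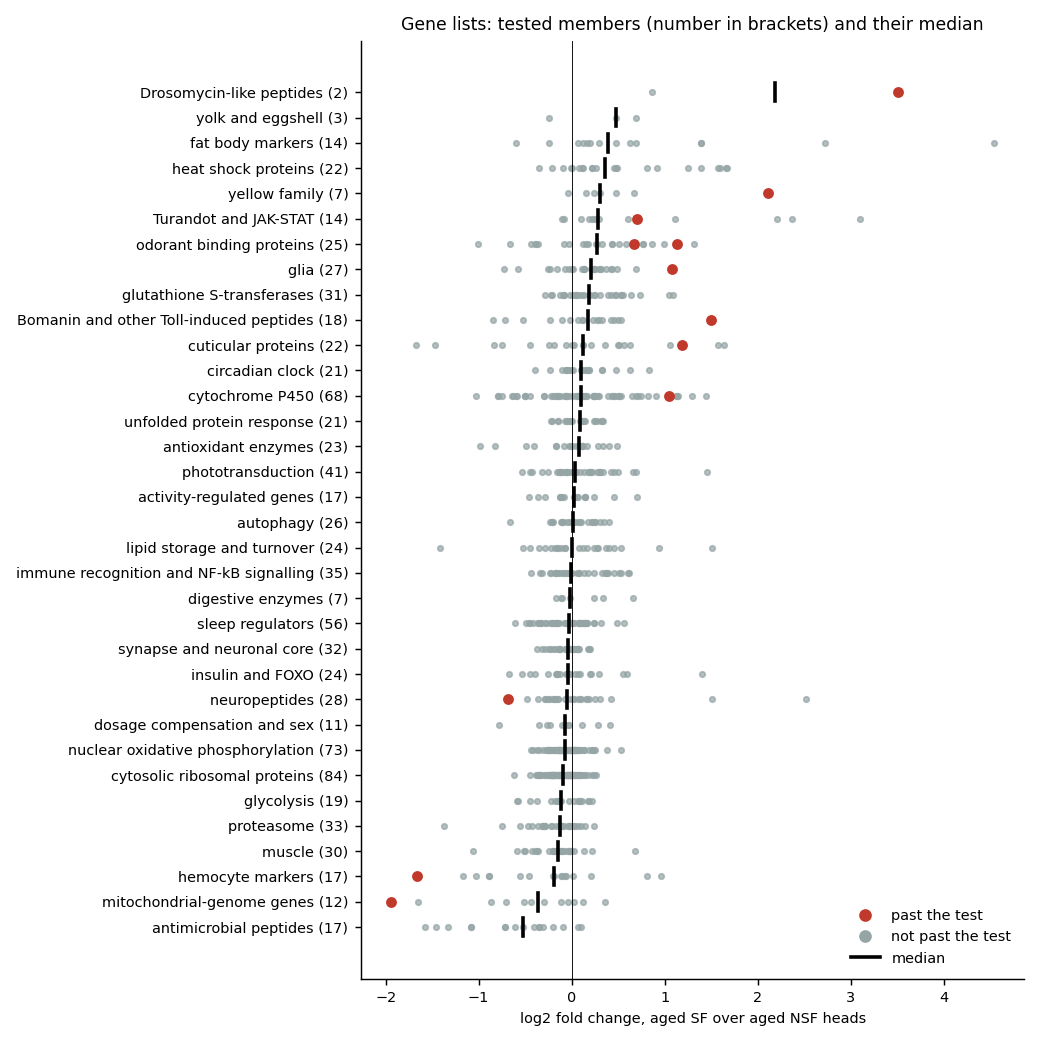
Log2 fold change of aged SF over aged NSF heads (x axis) for the tested members of each gene list with at least 2 of them (rows, number tested in brackets). Red points passed the test, grey points did not, and the black bar is the median, which runs from -0.52 for antimicrobial peptides to 2.19 for the 2 Drosomycin-like genes.

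Just short of the threshold stood 6 higher and 6 lower genes chosen by their p. PebIII, now named EbpIII, was at 6179 ± 546 CPM in aged SF heads and 3863 ± 1033 CPM in aged NSF heads (SD, n = 5 each), without overlap (log2 0.68 ± 0.15, edgeR adjusted p = 0.050, just above the limit). The noncoding gene CR44095, which shares 56.6% of its exonic bases with Cys on the other strand, was at 1118 ± 241 CPM in aged SF heads and 542 ± 128 CPM in aged NSF heads (log2 1.04 ± 0.22, edgeR adjusted p = 0.0723). CG31769, CG5853, CG14259 and CG10345 were higher, with log2 values of 0.58 to 1.19 and edgeR adjusted p of 0.0635 to 0.0741. Besides Ir76a and Obp56g above, CG11368, CG7763, CG8366 and CG14683 were lower, with log2 values of -2.24 to -0.60 and edgeR adjusted p of 0.0819 to 0.127.

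Set beside young heads, the called genes took several positions. For CG43092, CG9312, CG6409, Cyp4e3, CG9812 and Obp56d all aged SF heads lay above all young heads, while aged NSF heads overlapped them. For CG43092 the log2 over young heads was 1.54 in aged SF heads (edgeR adjusted p = 3.21e-07) and 0.33 in aged NSF heads (edgeR adjusted p = 0.188). For CG5162, Stat92E, GLaz, CG5973, Obp57a, CG15353 and CR45712 it was the aged NSF heads that lay apart, all below the young heads, while the aged SF heads overlapped them. Over all genes tested, 18.2% had no overlap between aged SF and young heads and 15.9% none between aged NSF and young heads.

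For Stat92E the log2 over young heads was -0.37 in aged SF heads (edgeR adjusted p = 0.0664) and -1.08 in aged NSF heads (edgeR adjusted p = 5.88e-06). For GLaz it was -0.50 in aged SF heads (edgeR adjusted p = 0.0951) and -1.57 in aged NSF heads (edgeR adjusted p = 1.06e-05). For Hml it was -1.27 in aged SF heads (edgeR adjusted p = 0.00125) and 0.40 in aged NSF heads (edgeR adjusted p = 0.303). These contrasts share the young heads and the aged heads with the comparison by sleep, so they describe positions and add no separate evidence. Of all genes tested, 25.2% were called between aged SF and young heads and 22.8% between aged NSF and young heads.

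The same contrast in bodies asks whether the head genes also differed outside the head. With edgeR none of 12009 genes was called between aged SF and aged NSF bodies, 2086 (17.4%) had an unadjusted p under 0.05, and DESeq2 called 603. The zero rested on the libraries: 250 genes were called without aged NSF body 1, 6 without aged NSF body 2, and 0 or 1 without any other aged body. Of the 23 head genes 22 could be tested in bodies, 16 had the same direction there and 0 were called. Hug had 0 reads in every aged SF body and 6 reads in 1 of the aged NSF bodies, so it was not tested in bodies.

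Cyp4e3 was the head gene closest to a call in bodies, at 47.4, 34.2, 46.5, 32.0 and 18.7 CPM in aged SF bodies, against 12.8, 7.72, 14.6, 26.2 and 19.8 CPM in aged NSF bodies (log2 1.13 ± 0.33, edgeR adjusted p = 0.125, DESeq2 adjusted p = 0.0307). Its change in bodies was about as large as in heads. Drsl4 was at 29.9, 30.3, 31.6, 12.9 and 16.8 CPM in aged SF bodies, against 28.7, 6.43, 6.10, 4.81 and 6.15 CPM in aged NSF bodies. Only aged NSF body 1 overlapped the aged SF bodies (log2 1.22 ± 0.50, edgeR adjusted p = 0.233). SPH93 was at 155 ± 99.5 CPM in aged SF bodies and 93.5 ± 41.5 CPM in aged NSF bodies (log2 0.73 ± 0.38, edgeR adjusted p = 0.328).

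CG5162 was more abundant in bodies and had nearly equal means there, at 594 ± 224 CPM in aged SF bodies and 592 ± 223 CPM in aged NSF bodies (SD, n = 5 each; log2 0.01 ± 0.30, edgeR adjusted p = 0.992). The difference between the head and the body change, tested as an interaction in all 30 libraries, was 1.64 ± 0.43 on the log2 scale (edgeR adjusted p = 0.145). That test treated the 30 libraries as independent. Whether a head and a body of the same number came from the same fly is not given in the sources used here. For CG15353 the difference was 3.48 ± 0.82 (edgeR adjusted p = 0.107), the smallest adjusted p of the called genes, and it had at most 2.40 CPM in any of these bodies. Of the 22 genes that could be tested in bodies, 14 had an unadjusted p of the difference under 0.05 and 0 passed; for Hug, nearly without reads in bodies, no difference is given. Over all 12318 genes in that test 0 passed with edgeR, 1259 had an unadjusted p under 0.05 and DESeq2 called 119. edgeR called 13 without aged NSF body 1, 7 without aged SF head 2, and 2 without aged SF body 5 or aged NSF body 5. In the main edgeR fit none of the 22 was thus shown to respond differently in heads. When the 22 were refitted under the other settings, the difference passed in 4 cases and did not in 546.

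**Figure D4:**
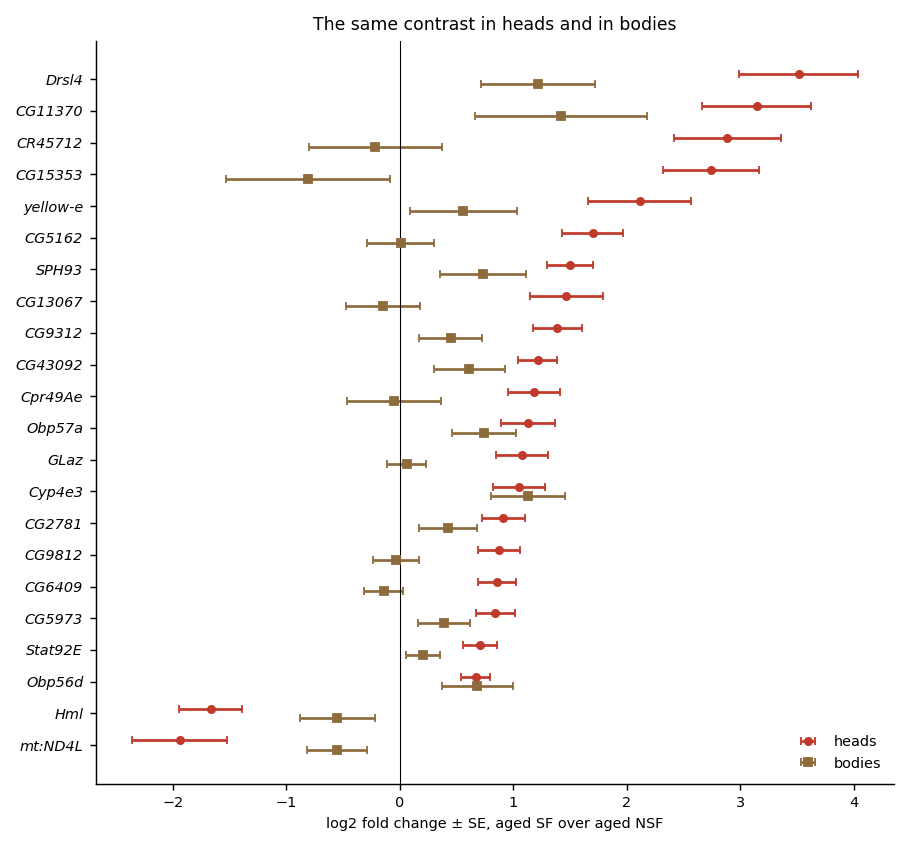
Log2 fold change of aged SF over aged NSF (x axis, bars are SE) in heads (red circles) and bodies (brown squares) for the 22 called head genes that could be tested in both. Cyp4e3 and Obp56d lie at about the same value in both, while CG15353, CR45712 and CG5162 are high in heads with body values at or below 0.01.

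The authors' deposited table for this comparison lists 101 genes at a q of 0.05 or less, 79 higher and 22 lower in aged SF heads, and holds all 23 genes called here. Of those 101, 97 were tested here, and all 97 had the same direction. An unadjusted p under 0.05 was reached by 96 of them in edgeR, and the largest edgeR adjusted p among them was 0.530. The smallest q among the 23 in the authors' deposited table is that of Drsl4, 3.98e-16, with a log2 fold change of 2.16. The authors' log2 values come from another fit and can be smaller than those of edgeR (Drsl4 2.16 against 3.52, TotX 1.04 against 3.10). The reason was not tested, so their sizes are not set against the edgeR values here. Nplp4, Obp56a and TotX, which were not called by edgeR, are listed in the authors' deposited table with q values of 4.09e-06, 0.00168 and 0.00345.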

How the data were processed

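Poly(A) RNA of single heads and bodies was sequenced. Per the labels and design text, the authors trimmed adapters with Trimmomatic, mapped to dm6 with STAR, dropped alignments of mapping quality below 8 and non-primary ones, and counted exonic reads with HTSeq-count; versions, annotation and strand setting are not given in the sources used here. The deposited table holds raw read counts. A second table holds the authors' DESeq2 q-values and log2 fold changes; only its first pair of columns could be tied to gene names and was used.

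The 15 heads were fitted together with edgeR 4.0.16 (R 4.3.3; TMM, filterByExpr by group, robust quasi-likelihood), with aged SF minus aged NSF as contrast and an adjusted p under 0.05, with no fold minimum, as the threshold. The 15 bodies were fitted alike, and the tissue difference was an interaction over 30 libraries. SE is the log2 fold change divided by the square root of F. In simulated heads the fit recovered 56 of 100 genes changed 2-fold and 87 of 100 changed 4-fold, with 5 false calls. A gene that did not pass can thus still differ. Pairs of libraries within a head group differed by a chi-square of at least 4.42 per degree of freedom, so none was a copy. All flies carry 1 batch date.

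Named are every called gene, the next 6 higher and 6 lower by p with at least 1 CPM, up to 3 members per list by p and, for the tissue difference, the 5 smallest p; other list members were named after their values were seen. Members and the 36 lists were chosen with earlier results of these data known, and 10 list entries were removed after values were seen. Alternatives were RLE scaling, no filter, a filter of 5 CPM in 5 heads, DESeq2 1.42.0, limma 3.58.1 voom with quality weights, the aged libraries alone, a replicate block, and each library left out. Positions come from an Ensembl annotation of BDGP6 that holds 17253 of the gene IDs. Promoter sequences were not used here.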

Additional observations from a re-analysis of the deposited data

Results flagged for a closer look

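In 54 groups of 5 aged heads examined for a single head far from the others, 2 had one, and chance alone marks about 1 in 20 groups. Drsl4 in aged NSF head 3 was at 13.63 CPM, while the other aged NSF heads had 3.33 to 5.46 CPM. The gene yellow-e in the same aged NSF head 3 was at 9.083 CPM, while the other aged NSF heads had 1.48 to 3.59 CPM.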

How the results depend on the processing

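The 23 genes called in heads numbered 23 with RLE scaling and with the 5 CPM filter, 56 with no filter, 86 with DESeq2, 39 with limma voom (20 shared), 36 with the 10 aged heads alone (20 shared), and 9 to 61 with 1 library left out. Bodies, at 0, had 603 with DESeq2, 5 with RLE scaling, 1 with no filter and 0 to 250 with 1 aged body left out. The tissue difference, at 0, had 119 with DESeq2, 2 with the 20 aged libraries alone and 0 to 13 with 1 aged library left out. The 101 genes followed in heads were the called genes, the next genes by p and the named list members with an unadjusted p under 0.05. None of them changed direction under any setting in which they were compared. They were chosen by p in these same counts, so this adds no separate evidence. Direction was not checked for list medians, and for tissue differences only where an adjusted p was under 0.05. Correlations of deviations between same-numbered aged SF and aged NSF heads ran from -0.03 to 0.14, and 2 of 5 aged SF heads matched their own number best. What the replicate numbers mark is not given in the sources used here, so whether they pair the flies was not settled. With the replicate number as a block 63 genes were called in heads, all 23 among them, 1 in bodies and 0 in the tissue difference. For the tissue difference the block was set within each tissue, so it did not join a head to a body. List medians moved beyond the spread in 11 of the cases run, among them Turandot and JAK-STAT genes, with 0.50 without aged NSF head 5 and 0.66 with no filter, and sleep regulators, with -0.10 without aged SF head 1. The causes were not tested. A depth of 1712101 to 3099585 reads per aged head leaves genes near the floor untested.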

Other observations

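For the difference between head and body the genes with the smallest p were CG31663, CG5376, Akh, cype and Zip48C, all with an edgeR adjusted p of 0.0816. CG31663 had a log2 fold change of -0.27 in heads and 1.32 in bodies. Akh, the gene of adipokinetic hormone, was at 0.812, 2.21, 7.79, 5.31 and 3.09 CPM in aged SF heads, against 0.383, 0.341, 0.606, 1.48 and 0 CPM in aged NSF heads. It was under the floor in most aged NSF heads and above it in most aged SF heads, and was too low for the head test. In bodies its log2 fold change was -1.48 (edgeR adjusted p = 0.0970). Zip48C, a zinc transporter family gene, was at 43.4, 42.5, 48.5, 30.4 and 37.9 CPM in aged SF heads, against 26.0, 31.0, 22.4, 15.9 and 21.5 CPM in aged NSF heads (log2 0.79, edgeR adjusted p = 0.138), with a log2 of -0.63 in bodies (edgeR adjusted p = 0.151).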
